A study of Rattus norvegicus with 6 samples.

Results

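The genes of phase I drug metabolism were examined in the livers of rats fed a control diet (CD) or a Western diet (WD). They were taken by symbol from cytochrome P450 families CYP1, CYP2 and CYP3, the carboxylesterases (Ces), the flavin-containing monooxygenases (Fmo), the epoxide hydrolases (Ephx), and Por. Of 33022 loci quantified, of which 32158 carried a symbol, 61 loci with 58 different symbols met this rule. A locus listed as AC107527.1 together with Cyp2d3, with a mean of 94.1 FPKM, did not meet it. It enters no sum, count or median of the phase I genes, so those of CYP2 are partial. A symbol found on several loci was represented by the locus with the highest mean. Of the 58 genes, 38 averaged at least 1 FPKM (fragments per kilobase of transcript, scaled to sequencing depth) over the 6 libraries and were compared between diets, as were 10201 loci in all.

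The animals were male obesity-prone Sprague Dawley rats (op-SD), an outbred stock bred for weight gain on an energy-dense diet, and they ate the CD or the WD for 2 weeks after a first period on the CD. All were fasted overnight and then refed their own diet for 1 h before the liver was taken. Their age is not given in the sources used here. The WD held more milk fat, sucrose and cholesterol and less starch than the CD, and both diets contained the antioxidant ethoxyquin, with more of it in the WD. Liver RNA was sequenced without ribosomal RNA as total RNA, as a light gradient fraction of mRNAs carrying 3 or fewer ribosomes, and as a heavy fraction carrying 4 or more. Each of the 6 groups, CD or WD in total RNA, light or heavy fraction, was 1 library made from pooled RNA of 3 rats. There were therefore no replicates, no spread between animals could be seen, and no p-value is given for any difference between the diets. A pool of whole liver also cannot tell fewer cells of a type from less RNA per cell.

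Phase I enzymes add or expose a polar group on lipophilic drugs, steroids, fatty acids and toxins, mostly in the endoplasmic reticulum of hepatocytes around the central vein. Cytochrome P450 enzymes insert an oxygen atom with electrons that the reductase encoded by Por takes from NADPH, the flavin monooxygenases oxidize nitrogen and sulfur, the carboxylesterases cleave esters and amides, and the epoxide hydrolases open reactive epoxides. CYP1 genes are known as targets of the Ah receptor, CYP2B and CYP2C genes of CAR and PXR, and CYP3A genes of PXR, and several rat forms differ between the sexes.

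The number of fragments behind a gene could be inferred from its FPKM values for 26 of the 38 genes. A 95% interval given for these covers counting error only and compares the libraries, not the diets. Depth relative to the CD heavy library was 2.34 in the WD light library and between 1.02 and 1.57 in the other 4. All 8 hepatocyte markers were present, and their summed level was lowest in the WD light library (44129 FPKM) and highest in the WD heavy library (135829 FPKM). Most of that sum was Alb, at 24966 and 97448 FPKM in these libraries, and not every marker followed it. Asgr1 went the other way, highest in the WD light (235 FPKM) and lowest in the WD heavy library (131 FPKM). Apoa1 was higher in the WD light than in the CD light library, at 626 and 246 FPKM. Summed markers of macrophages were between 61.1 and 158 FPKM, of sinusoidal endothelium between 79.0 and 145 FPKM, of stellate cells between 42.2 and 75.9 FPKM, of cholangiocytes between 0 and 4.35 FPKM with Krt7 and Spp1 listed at 0, and of T and B cells between 2.83 and 3.51 FPKM with Cd3g and Cd79a listed at 0. Erythroid markers summed to 292 FPKM in the WD light library and to between 11.2 and 40.6 FPKM elsewhere. That sum was mostly globin, with Hbb at 242 FPKM and Hbb-b1 at 40.1 FPKM, while Hba-a1 and Hba-a2 were not found. The erythroid marker Alas2 went the other way and was lowest there, at 7.18 FPKM against 19.7 FPKM in the CD light library. The WD light library thus stood apart in depth and globin RNA, and every ribosome density in the WD rests on it. The part of these markers in the results was not tested.

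The phase I genes together reached 6382 FPKM in total RNA of CD rats and 8440.5 FPKM in that of WD rats. As a share of the summed FPKM of loci with a symbol, they held 0.969% in CD total RNA, 1.37% in WD total RNA, 0.806% in the CD light, 0.782% in the WD light, 1.13% in the CD heavy and 1.44% in the WD heavy library. Levels per length were led by Cyp2e1, the P450 of ethanol and other small molecules, with a mean of 1228 FPKM. Next in order were Cyp3a2 (1011 FPKM), Cyp2c22 (879.8 FPKM), Cyp2c11 (755 FPKM), Cyp2c13 (702 FPKM) and Cyp2b3 (465 FPKM). In all, 17 genes averaged 100 FPKM or more, 11 of them CYP2 genes, and 31 averaged 10 FPKM or more. CYP2 genes carried 81.8% of the summed level of the phase I genes in CD total RNA, and CYP2C genes alone 39.3%. The corresponding share was 6.86% for CYP3, 3.17% for Ces, 3.01% for Ephx, 2.90% for CYP1, 1.48% for Fmo and 0.741% for Por.

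**Figure D1:**
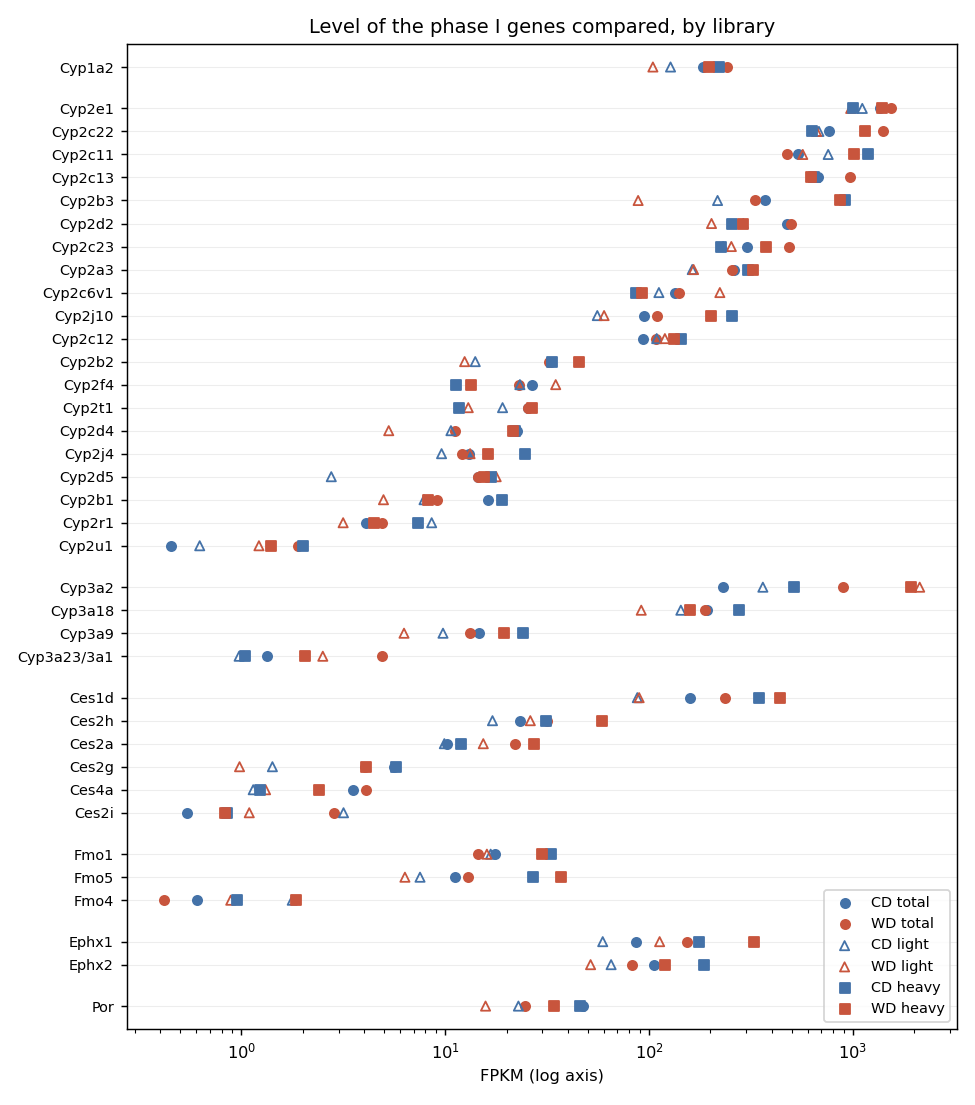
FPKM of 37 of the genes compared (log axis) in the 6 libraries, with blue for CD, red for WD, circles for total RNA, open triangles for the light and squares for the heavy fraction. Genes are grouped by family and ordered by mean, and Cyp3a2 spans 229.7 to 2126 FPKM with its 3 WD points to the right of its 3 CD points.

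The composition of this pool differed between the diets mainly in CYP3. In total RNA, CYP3 made up 6.86% of the phase I sum on the CD and 13.1% on the WD, beside 9.44% and 32.9% in the light fraction and 10.5% and 21.0% in the heavy fraction. In FPKM, the summed CYP3 level in WD rats was 2.52 times that in CD rats in total RNA, 4.32 times in the light and 2.60 times in the heavy fraction. The CYP2 sum was 1.23 times as high in WD total RNA, 0.907 times in the light and 1.14 times in the heavy fraction. The CYP1 sum, which is Cyp1a2 apart from a trace of Cyp1b1, stood at 1.30, 0.821 and 0.892 times the CD value. Without Cyp3a2, the remaining CYP3 genes summed to 208 FPKM in CD and 205 FPKM in WD total RNA, and stood at 0.652 times the CD value in the light and 0.601 times in the heavy fraction. The higher CYP3 sums of WD rats were therefore those of Cyp3a2.

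**Figure D2:**
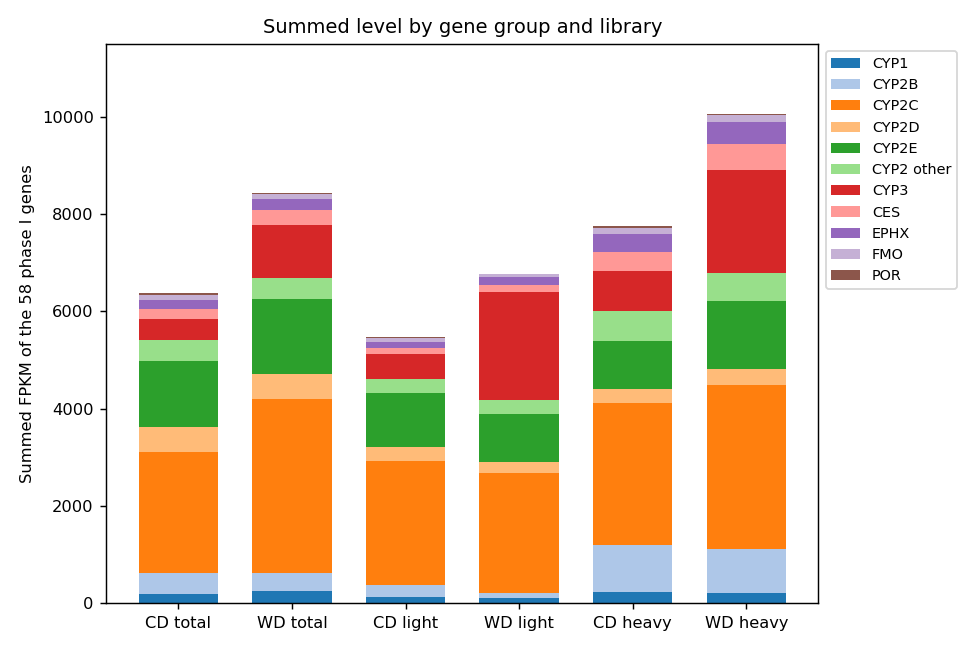
Summed FPKM of the 58 phase I genes in each library, stacked by gene group, with CYP2 divided into its most abundant subfamilies. The bars reach from 5465 FPKM (CD light) to 10067 FPKM (WD heavy), and the CYP3 segment is 2226 FPKM in the WD light against 516 FPKM in the CD light library.

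In total RNA, the WD to CD ratio reached 1.5 or more for 8 of the 38 genes (21.1%), against 17.7% of all loci compared, and was 0.75 or less for 5 (13.2%), against 22.7%. Ratios were formed after adding 0.1 FPKM, and the limits 1.5 and 0.75 are the study's for ribosome density, applied here to WD over CD where the study applied them to CD over WD. The median log2 change of mRNA abundance was 0.11 over the phase I genes and 0.02 over all loci. By family it was 0.38 for CYP1 (1 gene), 0.03 for CYP2 (20 genes), 0.88 for CYP3 (4 genes), 0.50 for Ces (6 genes), -0.07 for Fmo (4 genes), 0.24 for Ephx (2 genes) and -0.94 for Por. Among the 26 genes with fragment numbers, the whole interval was above 1 for 6 genes, against 3.67% of all loci with an interval, and below 1 for 4, against 3.8%. These genes were sequenced more deeply than most. Among loci averaging 10 FPKM or more the background was 6.33% above and 6.64% below 1 (6 and 4 of 22 genes), with a median of 85 fragments over loci and 176 over the phase I genes.

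Cyp3a2, the male-predominant steroid hydroxylase of the rat and an enzyme with broad drug substrates, showed the largest difference in total RNA among genes averaging 10 FPKM or more. Its level was 229.7 FPKM in CD and 898 FPKM in WD total RNA, 362 and 2126 FPKM in the light fraction, and 515 and 1937 FPKM in the heavy fraction. All 3 WD values were above all 3 CD values. The ratio was 3.91 in total RNA (95% interval 3.27 to 4.69, from 157 and 587 fragments), 5.88 in the light fraction (5.02 to 6.92) and 3.76 in the heavy fraction (3.24 to 4.38). The locus is chr12:11655401-11733136 of Rnor_6.0, as the file gives it, and it is shared with the uncharacterized gene LOC100910877, so how reads were divided between them cannot be seen. LOC100910877 was also higher in WD rats, at 100.2 and 305 FPKM in total RNA, a ratio of 3.04 (2.60 to 3.57).

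The other CYP3A genes did not share one pattern. Cyp3a23/3a1, the form best known for induction through PXR, was scarce in every library and stood at 1.33 FPKM in CD and 4.88 FPKM in WD total RNA. It stood at 0.976 and 2.51 FPKM in the light and at 1.05 and 2.05 FPKM in the heavy fraction, so that its WD values too were all above its CD values. Its locus spans 366 kb and carries other symbols too, and no fragment numbers could be inferred. Cyp3a18, another male-predominant form, had similar levels in total RNA, at 192 and 187 FPKM (ratio 0.976, 0.794 to 1.20) but was lower in WD rats in the light fraction, at 143 and 91.6 FPKM (0.640, 0.491 to 0.835), and in the heavy fraction, at 275 and 159 FPKM (0.578, 0.450 to 0.739). Cyp3a9, a female-predominant form, had 14.7 and 13.3 FPKM in total RNA, 9.76 and 6.28 FPKM in the light and 24.1 and 19.4 FPKM in the heavy fraction. The intervals at this locus all included 1. A second, less abundant locus of Cyp3a9, not used here, had 7.06 and 11.1 FPKM in total RNA. It had 2.06 and 4.46 FPKM in the light and 3.33 and 1.08 FPKM in the heavy fraction. The 2 loci thus differed in direction in total RNA and the light fraction.

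To set these 4 genes side by side, the 250 bases before each transcription start are shown from RefSeq (build GRCr8, a later build than that of the FPKM file), 5′ to 3′ on the gene's strand. Capitals mark the hexamers AGTTCA and AGGTCA on either strand (TGAACT and TGACCT when read on the other), which are the recognition units of PXR and related receptors. The windows are chr12:14343858-14344107 for Cyp3a2, chr12:14398804-14399053 for Cyp3a23/3a1 and chr12:21960161-21960410 for Cyp3a9, all on the minus strand, and chr12:13994062-13994311 for Cyp3a18 on the plus strand.
Cyp3a2: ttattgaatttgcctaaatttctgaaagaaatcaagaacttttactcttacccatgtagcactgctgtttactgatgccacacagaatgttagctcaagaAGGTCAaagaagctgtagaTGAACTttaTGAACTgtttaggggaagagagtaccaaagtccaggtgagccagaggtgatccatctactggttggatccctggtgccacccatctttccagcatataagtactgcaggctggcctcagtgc
Cyp3a23/3a1: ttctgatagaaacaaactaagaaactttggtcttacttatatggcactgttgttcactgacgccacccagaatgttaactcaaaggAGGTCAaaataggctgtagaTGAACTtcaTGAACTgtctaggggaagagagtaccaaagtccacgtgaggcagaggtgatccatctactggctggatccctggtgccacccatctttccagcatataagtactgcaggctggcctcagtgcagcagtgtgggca
Cyp3a18: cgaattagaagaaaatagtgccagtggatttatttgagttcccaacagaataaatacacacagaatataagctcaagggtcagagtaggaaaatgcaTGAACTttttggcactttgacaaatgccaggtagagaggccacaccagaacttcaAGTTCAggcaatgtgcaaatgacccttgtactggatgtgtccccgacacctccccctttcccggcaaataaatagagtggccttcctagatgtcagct
Cyp3a9: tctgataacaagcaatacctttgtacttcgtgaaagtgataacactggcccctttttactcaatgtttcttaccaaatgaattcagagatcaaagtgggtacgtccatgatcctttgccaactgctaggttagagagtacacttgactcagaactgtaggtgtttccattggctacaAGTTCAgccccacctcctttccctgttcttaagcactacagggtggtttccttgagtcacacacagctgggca
In Cyp3a2 and in Cyp3a23/3a1 a pair of these hexamers formed a direct repeat with a spacing of 3 bases, from position -131 to -117 in the former and from -144 to -130 in the latter, counted back from the start. This arrangement was found in 13 of 33469 promoters of the table (0.0388%), and of the 50 phase I genes with a promoter there, only these 2 held it. Cyp3a18 held separate hexamers at -153 and -98 and Cyp3a9 held 1 at -73. Any single hexamer of these 2 kinds occurred in 24.3% of all promoters and in 26 of the 50. No phase I gene held a direct repeat with a spacing of 4 bases (0.0149% of all promoters) or an everted repeat with a spacing of 6 bases (0.00299%) in this window. A match describes letters and is not a measured binding site.

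CYP1 was represented by Cyp1a2, the caffeine and aromatic amine hydroxylase. Its level was 185 FPKM in CD and 241 FPKM in WD total RNA (ratio 1.30, 1.13 to 1.5). In the light fraction it was 127 and 104 FPKM (0.820, 0.678 to 0.992) and in the heavy fraction 219.5 and 196 FPKM (0.892, 0.75 to 1.06). Total RNA and the gradient fractions therefore pointed opposite ways for this gene. Cyp1a1, which liver makes mainly when the Ah receptor is activated, was listed at 0 in all 6 libraries. Cyp1b1 was listed at 0 in all but the WD light library, where it stood at 0.156 FPKM.

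Among CYP2 genes the CYP2C subfamily was the most abundant. A ratio above 1 in total RNA was found for 5 of its 6 genes compared, and for 5214 of the 10201 loci compared. The CYP2C median log2 change was 0.37. Cyp2c22, a retinoic acid hydroxylase, stood at 767 FPKM in CD and 1398 FPKM in WD total RNA, a ratio of 1.82 (1.70 to 1.95). It showed the same ratio in the heavy fraction, from 627 and 1143 FPKM (1.66 to 2.00), but 681 and 663 FPKM in the light fraction (0.974, 0.895 to 1.06). Cyp2c23, the arachidonic acid epoxygenase of rat liver and kidney, followed the same course, with 302 and 483 FPKM in total RNA (1.60, 1.44 to 1.78), 231 and 253 FPKM in the light and 225 and 376 FPKM in the heavy fraction (1.67, 1.44 to 1.94). Cyp2c13, a male-specific form, had 677 and 972 FPKM in total RNA (1.44, 1.33 to 1.55), and its ratio was 0.978 in the light and 0.969 in the heavy fraction, where the intervals included 1. Cyp2c11, the main male-specific testosterone hydroxylase, was the CYP2C gene with a ratio below 1. It had 535 and 475 FPKM in total RNA (0.888, 0.806 to 0.978), 756 and 568 FPKM in the light (0.75, 0.690 to 0.817) and 1191 and 1007 FPKM in the heavy fraction (0.846, 0.780 to 0.917). Cyp2c12 had 92.9 and 108 FPKM in total RNA (1.16, 0.851 to 1.59), and Cyp2c6v1, whose locus spans 174 kb, had 133 and 140.0 FPKM.

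The 3 CYP2B genes compared all had ratios below 1 in total RNA and in the light fraction. Of the 10201 loci compared, 4796 were below 1 in total RNA and 4819 in the light fraction. Cyp2b3, a form that phenobarbital does not induce, was the most abundant, at 372 and 331 FPKM in total RNA, 217 and 88.4 FPKM in the light and 916 and 866 FPKM in the heavy fraction. The phenobarbital-inducible forms were far lower. Cyp2b2 had 32.9 and 32.3 FPKM in total RNA, 14.0 and 12.5 FPKM in the light and 33.4 and 45.2 FPKM in the heavy fraction. Cyp2b1 had 16.2 and 9.15 FPKM in total RNA (0.569, 0.265 to 1.16), 7.88 and 4.98 FPKM in the light and 19.0 and 8.26 FPKM in the heavy fraction, with intervals that included 1 throughout.

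The remaining CYP2 subfamilies showed smaller differences in total RNA, with a few scarce exceptions. Cyp2e1 had 1357 and 1533 FPKM in total RNA, 1112 and 975 FPKM in the light and 996 and 1393 FPKM in the heavy fraction. The WD value was thus the higher in total RNA and the heavy fraction and the lower in the light fraction. Its locus is shared with Syce1, and no fragment numbers could be inferred. Cyp2a3, on a locus of 113 kb, had 262 and 255 FPKM in total RNA and ratios between 0.973 and 1.06 in the 3 kinds of RNA. Cyp2d2, the debrisoquine hydroxylase, had 474 and 495 FPKM in total RNA (1.04, 0.944 to 1.15) but 290.1 and 202 FPKM in the light fraction (0.698, 0.607 to 0.804). Cyp2d4 had 22.5 and 11.1 FPKM in total RNA, a ratio of 0.499 (0.272 to 0.878) that was the lowest among genes averaging 10 FPKM or more, and 22.0 and 21.5 FPKM in the heavy fraction. Cyp2d5 had 14.5 FPKM in total RNA on both diets, and 2.76 and 17.8 FPKM in the light fraction from 3 and 42 fragments. Cyp2f4 had 26.7 and 23.1 FPKM in total RNA, Cyp2t1 25.5 and 25.4 FPKM and Cyp2j4 13.1 and 12.1 FPKM, all with intervals that included 1. Cyp2j10, on a locus of 200.4 kb, had 94.9 and 109 FPKM, and the vitamin D hydroxylase Cyp2r1 4.11 and 4.91 FPKM from 7 and 8 fragments. The highest CYP2 ratio, 3.61, belonged to Cyp2u1, a fatty acid hydroxylase at 0.453 and 1.90 FPKM, for which no fragment numbers could be inferred.

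Outside the P450 families, 3 of 13 genes had a ratio of at least 1.5 and 3 had a ratio of at most 0.75 in total RNA, where 17.7% and 22.7% of all loci did. Ephx1, the microsomal epoxide hydrolase, was higher in WD rats in every kind of RNA, at 86.1 and 153 FPKM in total RNA (ratio 1.78), 59.3 and 113 FPKM in the light (1.90) and 175 and 326 FPKM in the heavy fraction (1.86). Ephx2, the soluble hydrolase of fatty acid epoxides, was lower in each, at 106 and 82.7 FPKM in total RNA (0.781, 0.638 to 0.954), 65.2 and 51.7 FPKM in the light (0.793, 0.615 to 1.03) and 187 and 119 FPKM in the heavy fraction (0.637, 0.522 to 0.776). The epoxide hydrolases thus stood on opposite sides of 1.

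Por, the electron donor of all microsomal P450 enzymes, stood at 47.3 FPKM in CD and 24.5 FPKM in WD total RNA, from 121 and 60 fragments, a ratio of 0.519 (0.374 to 0.712). In the light fraction it had 22.9 and 15.8 FPKM (0.691, 0.455 to 1.06) and in the heavy fraction 46.1 and 34.2 FPKM (0.743, 0.516 to 1.06). Its WD value was the lower in each kind of RNA, although the heavy WD value lay above the light CD value.

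The carboxylesterases had ratios above 1 in total RNA for 5 of 6 genes compared, where 5214 of the 10201 loci compared did. Ces1d, a triacylglycerol and xenobiotic hydrolase, had 158 and 236 FPKM in total RNA (ratio 1.49), 87.6 and 89.4 FPKM in the light and 345 and 439 FPKM in the heavy fraction. Its locus spans 302 kb and is shared with LOC501233, which was at 308 and 317 FPKM in total RNA. Ces2a had 10.2 and 22.1 FPKM in total RNA from 12 and 25 fragments, a ratio of 2.17 (1.05 to 4.76). Its ratio was 1.55 (0.686 to 3.95) in the light and 2.27 (1.00 to 5.65) in the heavy fraction. Ces2h had 23.3 and 31.5 FPKM in total RNA (1.35, 0.912 to 2.01) and 31.3 and 58.9 FPKM in the heavy fraction (1.88, 1.27 to 2.81), and Ces4a had 3.52 and 4.09 FPKM in total RNA. The family ranged from Ces2g, at 5.59 and 4.06 FPKM (0.732, 0.359 to 1.44), to Ces2i, at 0.542 and 2.83 FPKM from 1 and 5 fragments (4.57, 0.585 to 247). Among the flavin monooxygenases, Fmo1 had 17.6 and 14.4 FPKM and Fmo5 11.1 and 13.0 FPKM (1.16, 0.663 to 2.06). Fmo4 was scarce, at 0.608 and 0.420 FPKM.

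Within the gradient, WD over CD was 1.5 or more for 8 genes in the light fraction, against 25.9% of all loci, and 0.75 or less for 12, against 26.8%. In the heavy fraction 10 genes were at or above 1.5, against 21.7%, and 8 at or below 0.75, against 25.8%. Genes past the limit in total RNA, light and heavy fraction alike were fewer. Cyp3a2, Ephx1, Ces2a and Cyp3a23/3a1 were at or above 1.5 in all 3, that is 4 of 38 genes against 2.23% of all loci. Por, Cyp2b1 and Ces2g were at or below 0.75 in all 3, that is 3 genes against 2.52% of loci. In all, 9 genes had ratios above 1 in all 3 and 10 had ratios below 1 in all 3, against 13.4% of loci in either direction. Across the 31 genes averaging 10 FPKM or more, the log2 change in total RNA and that in the heavy fraction had a Spearman correlation of 0.67, and of 0.11 across the 4069 loci at that level. This is a description across genes, which are not independent and share the same 4 libraries, and the phase I genes held more fragments than most loci.

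**Figure D3:**
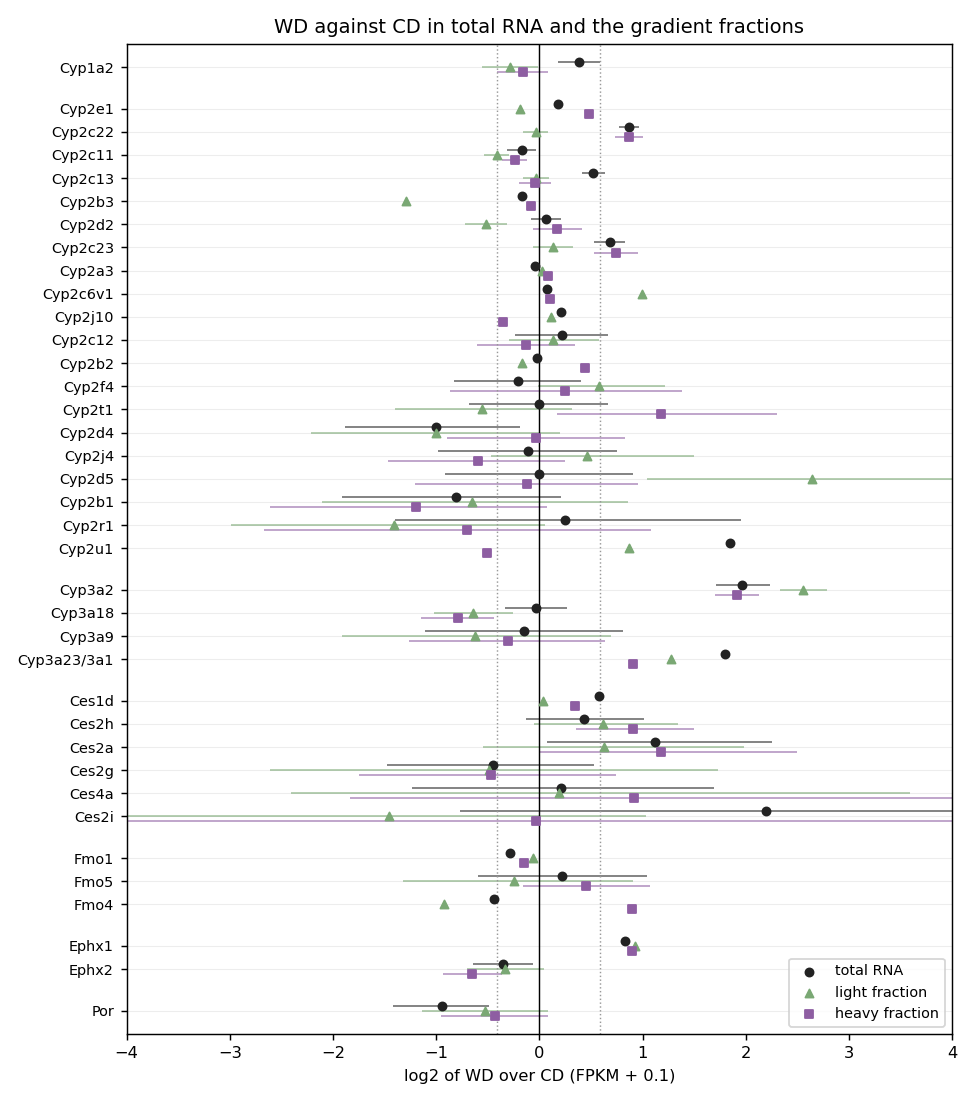
log2 of WD over CD for 37 of the genes compared in total RNA (circles), the light fraction (triangles) and the heavy fraction (squares), with bars for 95% intervals from counting error where fragment numbers were inferred, cut off at the edge of the axis. Dotted lines mark ratios of 0.75 and 1.5. The 3 points of Cyp3a2 lie between 1.91 and 2.56 and those of Por between -0.94 and -0.43.

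Ribosome density, the heavy over the light value, was above 1 for 27 of the 38 genes in CD rats and for 31 in WD rats, where 5123 and 4943 of the 10201 loci compared exceeded 1. FPKM is scaled to sequencing depth, so a density compares relative levels and does not measure how mRNA divided between the fractions. The median log2 density was 0.83 on the CD and 0.82 on the WD, against 0.01 and 0.00 over all loci. Abundant mRNAs in general lay to the heavy side, and the 647 loci averaging 100 FPKM or more had medians of 0.47 and 0.70, beside 0.65 and 0.80 for the 17 phase I genes at that level. Densities differed widely within the families. On the CD, the density was 5.91 for Cyp2d5, whose light value came from 3 fragments, and 4.59 for Cyp2j10. It was 4.22 for Cyp2b3, 3.94 for Ces1d, 3.55 for Fmo5, 2.95 for Ephx1 and 2.87 for Ephx2. At the other end among genes averaging 10 FPKM or more were Cyp2f4, a naphthalene oxidase, with 0.487, Cyp2t1 with 0.616 and Cyp2c6v1 with 0.774. Of the 6 most abundant genes, 3 lay near equality on the CD, with 0.896 for Cyp2e1, 0.920 for Cyp2c22 and 0.979 for Cyp2c13, while Cyp3a2 had 1.42, Cyp2c11 1.57 and Cyp2b3 4.22. Cyp2c23 and Cyp2d2 were also near equality, at 0.974 and 0.884. Each of Cyp2e1, Cyp2c22, Cyp2c23 and Cyp2d2 was on the heavy side on the WD, at 1.43, 1.72, 1.48 and 1.43.

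**Figure D4:**
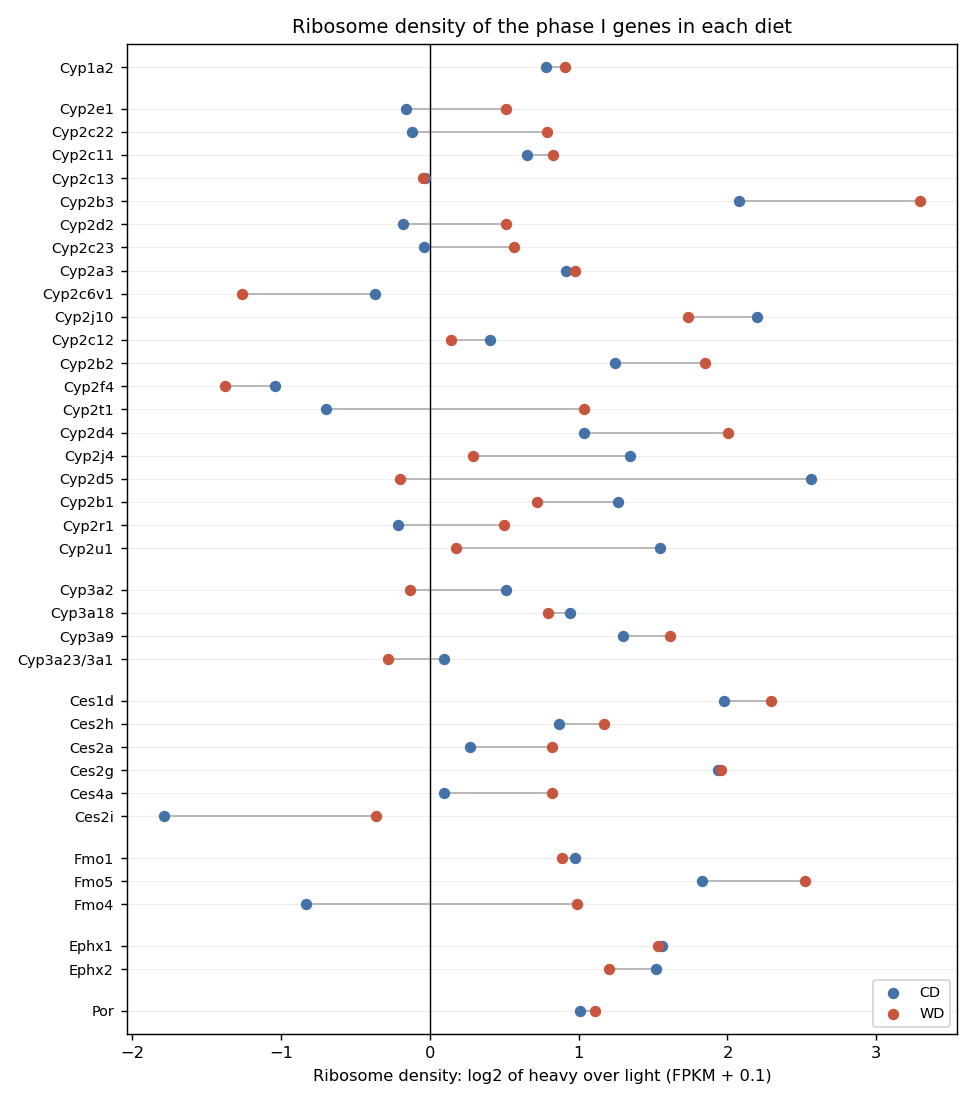
log2 of heavy over light for 37 of the genes compared in CD (blue) and WD (red) rats, joined by a grey line. Most points lie to the right of 0, and Cyp2b3 has the highest value on the WD (3.29) and Cyp2f4 the lowest (-1.38).

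The WD to CD ratio of ribosome density was at least 1.5 for 13 of the 38 genes, against 27.7% of all loci, and at most 0.75 for 7, against 36.1%. Its median log2 change was 0.15 over the phase I genes and -0.02 over all loci. By family the median was 0.12 for CYP1, 0.12 for CYP2, -0.26 for CYP3, 0.43 for Ces, 0.63 for Fmo, -0.17 for Ephx and 0.10 for Por. The interval lay above 1 for 6 of 26 genes, against 5.65% of loci with an interval, and below 1 for 2, against 4.58%. Among loci averaging 10 FPKM or more the background was 11.3% and 7.93%, with a median of 173 fragments over loci and 303.5 over the phase I genes. After scaling all 6 libraries to 1 common sum over loci with a symbol, the density change of all loci moved by 0.30 on the log2 scale, and 18 genes were then at or above 1.5, against 38.0% of all loci, and 4 at or below 0.75, against 27.2%. The CYP3 and Ephx medians of density then turned to 0.06 and 0.16. The same scaling moved the light fraction by -0.31, and it left 10 genes at or above 1.5 in total RNA, against 20.5% of loci, and 3 at or below 0.75, against 19.2%. The Fmo median of abundance then turned to 0.03. With the limits applied to CD over WD, 15 genes had the higher density on the WD, against 32.9% of loci, and 5 the lower, against 30.9%.

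The density change of several genes depended on whether the light fraction or total RNA was the denominator. For Cyp2c22 the WD density was 1.87 times the CD density (1.65 to 2.13), for Cyp2d2 1.61 times (1.30 to 2.01) and for Cyp2c23 1.52 times (1.24 to 1.87). With total RNA as the denominator, the heavy value gave 1.000 (0.890 to 1.12) for Cyp2c22, 1.08 (0.889 to 1.31) for Cyp2d2 and 1.04 (0.870 to 1.26) for Cyp2c23. Cyp3a2 had a density ratio of 0.640 (0.513 to 0.798) against the light fraction and 0.962 (0.759 to 1.22) against total RNA. Cyp2d5, with 3 fragments in the CD light library, had 0.147 (0.0246 to 0.609) and 0.919 (0.340 to 2.48). For Cyp2b3 the ratio was 2.32 against the light fraction and 1.06 against total RNA, and for Cyp2c6v1 it was 0.539 and 1.02.

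Cyp2t1, Cyp2d4, Cyp2j4, Cyp2j10 and Por were among the genes on the same side of 1 by either denominator, with ratios of differing size. Cyp2t1 had a density ratio of 3.33 (1.29 to 8.91) against the light fraction and 2.28 (0.959 to 5.64) against total RNA, with 12 fragments in the CD heavy and 28 in the WD heavy library, and its locus is shared with Egln2. Cyp2d4 had 1.95 (0.695 to 5.57) and 1.96 (0.842 to 4.61), and Cyp2j4, a fatty acid epoxygenase, had 0.482 (0.189 to 1.19) and 0.716 (0.302 to 1.69). Cyp2j10, for which no fragment numbers could be inferred, had 0.727 and 0.681. Por had 1.07 (0.613 to 1.88) and 1.43 (0.877 to 2.33). Ephx1 lay close to 1 by both, at 0.981 and 1.05. Heavy over total RNA on the WD was 1.5 or more times that on the CD for 4 genes, against 26.7% of loci, and at most 0.75 times for 9, against 31%. Its interval lay above 1 for 0 of 26 genes, against 2.36%, and below 1 for 3, against 2.97%. Those 3 were Cyp2c13 (0.675, 0.593 to 0.769), Cyp1a2 (0.685, 0.547 to 0.857) and Cyp3a18 (0.592, 0.427 to 0.820), whose WD to CD ratios were lower in the heavy fraction than in total RNA.

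**Figure D5:**
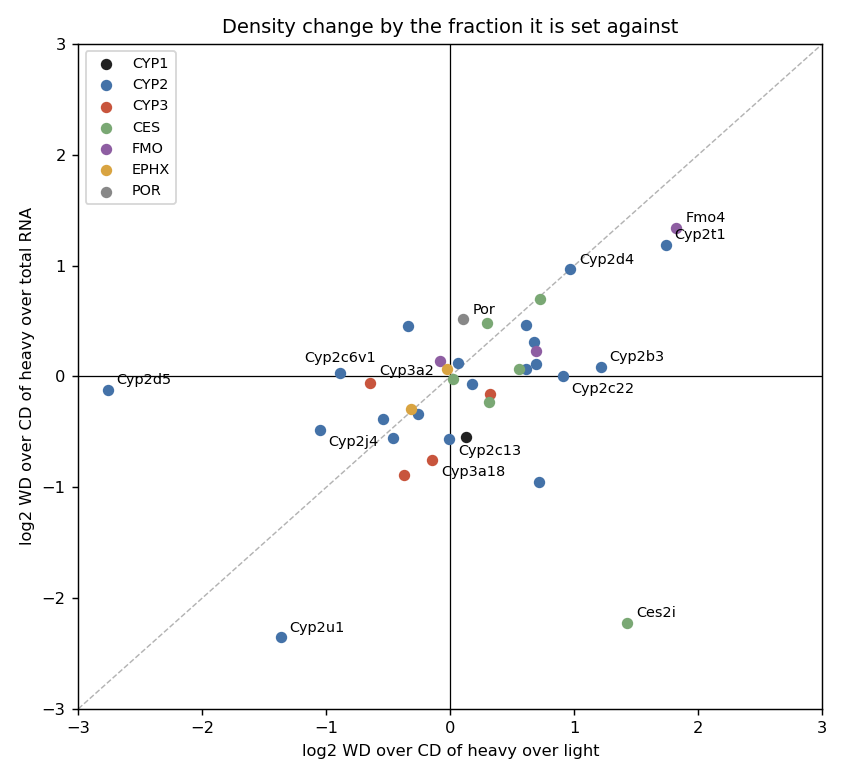
log2 of the WD over CD change in heavy over light (x axis) and in heavy over total RNA (y axis) for 37 of the genes compared, coloured by family, with a dashed line of equality. Cyp2c22, Cyp2b3, Cyp2d5, Cyp2c6v1 and Cyp3a2 lie near 0 on the y axis while spread along the x axis, from -2.76 for Cyp2d5 to 1.21 for Cyp2b3.

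Forms known to differ between the sexes had ratios on both sides of 1. Of 5 male-predominant forms, 4 were found under their symbols. In total RNA 1 of them (Cyp3a2) was at or above 1.5 and 0 were at or below 0.75, where 17.7% and 22.7% of all loci were. The other ratios were 1.44 for Cyp2c13, 0.976 for Cyp3a18 and 0.888 for Cyp2c11. Of 4 female-predominant forms, 3 were found and 2 compared, with ratios of 1.16 for Cyp2c12 and 0.904 for the more abundant locus of Cyp3a9. Cyp2c12 was measured at 92.9 to 144 FPKM in these pools of male rats, and Cyp2c7 was listed at 0 in all 6 libraries. CYP2C and CYP3A paralogs are close in sequence, so how the authors' counting divided reads between them limits what these levels mean. Of 6 genes found on the list of CAR or PXR targets, Ephx1 and Cyp3a23/3a1 were at or above 1.5 in total RNA, Por and Cyp2b1 at or below 0.75, and Cyp2b2 and Cyp2c6v1 between, beside 17.7% and 22.7% of all loci past these limits. The list's median log2 change was 0.02 in total RNA, the value over all loci.

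Among other genes of the pathway, the 4 that pass electrons or bind heme beside Por all lay between the limits in total RNA. Cyb5a, the cytochrome b5 that donates electrons to many P450 enzymes, had 360.2 and 459.9 FPKM, and Pgrmc1, a heme-binding partner of P450 enzymes, 567 and 625 FPKM. Of 8 heme synthesis genes 0 were at or above 1.5 and 1 was at or below 0.75 in total RNA, where 17.7% and 22.7% of all loci were, and the rate-limiting Alas1 had 48.1 and 39.6 FPKM. Of 9 regulators compared, 1 was at or above 1.5 and 1 at or below 0.75, where 17.7% and 22.7% of all loci were. These were Ahr, the Ah receptor, with 10.3 and 15.7 FPKM from 58 and 85 fragments, and Nr1i2, which encodes PXR, with 32.0 and 23.1 FPKM from 78 and 54 fragments. Nr1i3, which encodes CAR, had 29.7 and 34.1 FPKM. In ribosome density, 1 of the 8 heme genes was at or above 1.5 and 4 at or below 0.75, 0 and 2 of the 4 electron transfer genes, and 0 and 1 of the 9 regulators, where 27.7% and 36.1% of all loci lay past these limits. Of pericentral genes, which mark the zone where most P450 enzymes are made, 1 of 7 compared was at or above 1.5 in total RNA and 1 at or below 0.75. Past these limits were 0 and 0 of 7 periportal genes, and 17.7% and 22.7% of all loci. The pericentral list includes Cyp2e1 and Cyp1a2.

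Of the 58 genes, 20 were not compared. Of these, 7 had a mean below 1 FPKM (Fmo2, Ces2c, Cyp2s1, Ces2j, Fmo6, Ces1a and Cyp1b1), and 13 were listed at 0 in all 6 libraries (Ces2e, Ces5a, Cyp1a1, Cyp2b12, Cyp2b21, Cyp2c65, Cyp2c7, Cyp2g1, Cyp2w1, Ephx3, Ephx4, Fmo13 and Fmo9). By family, 1 of 3 CYP1, 20 of 27 CYP2, 4 of 4 CYP3, 6 of 11 Ces, 4 of 8 Fmo and 2 of 4 Ephx genes were compared. Loci of more than 100 kb stood for 5 of the 38 genes (Cyp2a3, Ces1d, Cyp2c6v1, Cyp2j10 and Cyp3a23/3a1), and whether their values include neighbouring genes was not tested. The bounds that Cufflinks gives for each FPKM overlapped between the diets for all 38 genes in total RNA, in the light and in the heavy fraction, Cyp3a2 included.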

How the data were processed

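Liver RNA of 6 groups, each 1 library from a pool of 3 rats, was measured by RNA sequencing after ribosomal RNA removal. Per the paper's methods and the submitters' processing notes, the authors used TopHat for alignment to Rnor_6.0, and Cufflinks and Cuffnorm for quantification. The annotation is not given in the sources used here. The deposited table gives FPKM for each locus with lower and upper bounds, normalized by the authors across libraries. Loci were compared if they carried a symbol, were estimated without failure and averaged 1 FPKM or more. The deposited FPKM plus 0.1 FPKM entered each log2 change, and every ratio or fold sets WD over CD. Ribosome density is heavy over light FPKM. No test was possible with 1 library per group, so counts past a ratio of 1.5 or 0.75 are set beside the percent of all loci past it.

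Fragment numbers were inferred by finding a factor for each library and a step for each gene that turned all values into whole numbers, within a relative tolerance of 1.5e-05. They were found for 9144 of 12459 loci (73.4%) and 443 more were rejected for an implausible step. They are estimates, since any multiple fits equally well. Intervals at the 95% level are Clopper-Pearson for a ratio of 2 libraries and conditional odds ratio intervals for density, and PCR copies make them too narrow. The method was tested on simulated data.

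The members and lists were chosen with earlier results of these data known. Named genes are those averaging 100 FPKM or more, the 3 highest and 3 lowest changes of abundance and of density among those averaging 10 FPKM or more, a preset list of well-known forms, and the ends of a range. Lists covered sex-predominant forms, CAR or PXR targets, electron transfer, heme synthesis, regulators, zonation and markers of liver cell types. The values of 1 gene compared are not reported here, although it enters all counts, sums and medians. Cyp2a1, Cyp2a2 and Cyp2c6 were not found under their own symbols. Promoters came from a RefSeq table of GRCr8, where 50 of 58 members matched. Tables were handled in pandas 2.3.3 under Python 3.11.15, with scipy 1.17.1 for intervals, numpy 2.4.6 for arrays, and figures drawn in matplotlib 3.10.9.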

Additional observations from a re-analysis of the deposited data

Results flagged for a closer look

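The ratio of heavy to light FPKM differed between the CD and WD libraries beyond counting error for the 7 genes given here. The interval lay above 1 for 5.65% of all loci with an interval and below 1 for 4.58%. Among loci averaging 10 FPKM or more, these shares were 11.3% and 7.93%. With 1 library per group, the difference was not tested over rats. The WD to CD ratio of ribosome density was 1.87 for Cyp2c22, 1.61 for Cyp2d2, 1.52 for Cyp2c23, 1.13 for Cyp2c11, 3.33 for Cyp2t1, 0.640 for Cyp3a2 and 0.147 for Cyp2d5. With total RNA as the denominator, the heavy fraction gave 1.000, 1.08, 1.04, 0.952, 2.28, 0.962 and 0.919 for the same genes, and the intervals then included 1 for all 7.

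LOC100910877, an uncharacterized gene outside the symbols examined, lies at the locus of Cyp3a2 and was 3.04 times as high in WD as in CD total RNA. Its ratio was 1.65 (95% counting interval 1.5 to 1.81) in the light and 1.65 (1.29 to 2.13) in the heavy fraction.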

How the results depend on the processing

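Each group held 1 library, so no library could be left out. No paired analysis was possible because each group holds 1 library. At a mean of at least 10 FPKM, 8 of 31 members lay past a limit in total RNA in place of 13 of 38. The share of all loci past a limit at that level is not given. Over all loci compared it was 17.7% at or above 1.5 and 22.7% at or below 0.75. With heavy over total RNA in place of heavy over light, 13 members lay past a limit in place of 20. Of all loci, 26.7% were then at or above 1.5 and 31% at or below 0.75, against 27.7% and 36.1% for heavy over light. The log2 density change of Cyp2c22 was then -0.00031 and that of Cyp2c6v1 was 0.032, and the CYP1 median was -0.55. With no filter on the mean, Cyp1b1 entered and the CYP1 median was 0.19 for abundance and -0.62 for density. Rescaled libraries gave CYP1 medians of 0.48 and 0.45 and an Ephx density median of 0.16. Over loci averaging 1 FPKM or more and off the mitochondrial chromosome, the members' share was 1.20% in CD total, 1.65% in WD total, 0.949% in CD light and 0.920% in WD light RNA. Of 174 such values under alternatives, the other 162 stayed within 1.5 times the count or within the interval of the value. Of 384 values of named members 368 did. For the CYP3, Ces, Fmo and Ephx medians that interval was the whole range of their genes, so staying within it says little. The same holds for named members without fragment numbers, whose interval was built from the wide bounds of Cufflinks. The density ratio of Cyp2b3 counted as staying within it, although it was 2.32 against the light fraction and 1.06 against total RNA. At a mean of at least 10 FPKM the CYP3 abundance median was -0.035 in place of 0.88, and the Fmo abundance median changed sign too. Leaving out loci over 100 kb (33 members kept) or Cyp3a2 (37 kept) were 2 alternatives chosen after seeing the data. Each left 12 members past a limit in total RNA, and they left 18 and 19 in density, beside the shares of all loci given above. Limits applied to CD over WD, also chosen after seeing the data, left 20 members past a limit in density. Of all loci, 32.9% then had the higher density on the WD and 30.9% the lower. Fragment numbers read from the bounds of Cufflinks, usable up to 30 fragments, matched the inferred ones for 51 of 53 values and gave 8 of 8 intervals on the same side of 1. Depth limits scarce members most. Among those compared, Ces2i had 1 to 5 fragments per library.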
